A study of Mus musculus with 12 samples.

Results

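The Shank2 knockout effect after early memantine, termed Mem-K/W, was the difference between Shank2 knockout mice (KO-Mem, n = 3) and wild-type mice (WT-Mem, n = 3) that had both received memantine. These 6 of the 12 mice of the series were taken by their group names, and no measured value was used to choose them. All 6 were male C57BL/6N mice given memantine by mouth at 20 mg/kg, 2 times a day from P7 to P21 in 0.1% saccharin, and their brain RNA was sequenced at P25, some days after the last dose. KO-Mem mice carried a homozygous deletion of Shank2 exons 6 and 7, in a line whose name records a 129S4 origin beside the B6N background. The other 6 mice, used here only for comparison, were Shank2 knockout and wild-type mice given the 0.1% saccharin vehicle (KO-Veh and WT-Veh, n = 3 each), and their knockout effect was termed Veh-K/W. The labels name whole brain, whereas the study's methods describe forebrain from which cerebellum and brain stem had been removed. Each library came from 1 mouse, and p-values here measure only the spread between these mice. The comparison addressed how the transcriptome of Shank2 knockout mice differed from wild type once both genotypes had been treated.

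Shank2 is a scaffold protein of the postsynaptic density of excitatory synapses, where Shank proteins hold SAPAP, Homer and PSD-95 family proteins together and so link NMDA and metabotropic glutamate receptors to the cytoskeleton. Memantine is an open-channel blocker of the NMDA receptor, the glutamate receptor whose calcium entry drives synaptic plasticity and the transcription of immediate early genes. The forebrain of a juvenile mouse is at the same time a tissue in active myelination, in which oligodendrocytes make large amounts of cholesterol and myelin protein.

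Values were normalised read counts per gene, in which the differences in depth between libraries had been scaled away. Of the 19312 genes, 17646 had a mean of at least 10 over the 6 mice and were tested on the log2(value + 1) scale, and 1666 were not. A log2 difference is always KO-Mem minus WT-Mem, so a negative value means a lower level in knockout mice, and this scale understates differences of genes with low values. The values of each mouse summed to nearly the same total, so the sums do not show depth. The worth of a single read was estimated in each library as the median of its values between 0.5 and 1.4. It lay between 0.871 and 1.098 in these 6 libraries, for relative depths of 0.912 to 1.15. These depths are rough, since the chosen range limits them.

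The tissue was checked against markers. The 12 markers of excitatory forebrain neurons had summed values of 147973 to 150392 in KO-Mem and 141877 to 157295 in WT-Mem mice. The 10 cerebellar markers, of which 9 were in the table and 8 were tested, summed to only 908 to 1106 in KO-Mem and 1038 to 1116 in WT-Mem mice. Cerebellar RNA was thus scarce in all 6 libraries, which goes against the whole-brain label. The median log2 difference of the cerebellar markers was −0.07 in Mem-K/W. It was 0.75 in Veh-K/W, where KO-Veh 3 lay 2.34 above the mean of the 12 mice (log2, averaged over the list) and the other KO-Veh mice at −0.21 each. Veh-K/W values given here include that mouse.

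The 3 KO-Mem mice were not alike. The first principal component of the 6 mice held 39.9% of the variance and placed KO-Mem 1 at 45.6 and KO-Mem 2 at 28.6, but KO-Mem 3 at −3.21, while WT-Mem mice lay at −24.0, −21.8 and −25.1. The second component, with 19.5% of the variance, set WT-Mem 3 apart at 39.1. KO-Mem 3 therefore lay between KO-Mem 1 and 2 and the wild-type mice, and this position returned in most gene groups described here. Several results are given with and without that mouse, and the others include it.

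Shank2 itself checked the labels. Its values were 2817, 2706 and 3178 in KO-Mem and 7936, 8548 and 7156 in WT-Mem mice, and it fell by 1.44 on the log2 scale (SE 0.08, limma adjusted p = 0.000186). The groups were far apart in every mouse. Part of the signal remained in all 3 knockouts, and gene-level values do not show which exons it came from. In vehicle mice the values were 3053, 3006 and 2723 in KO-Veh and 8248, 7427 and 8325 in WT-Veh, a log2 difference of −1.45, and the difference between both knockout effects had an unadjusted p of 0.94.

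Across the transcriptome, 12 genes passed an adjusted p of 0.05 in limma. Of these, 5 were higher in KO-Mem (0.0283% of genes tested) and 7 were lower (0.0397%). These 12 stood on a broader set of smaller differences. At an unadjusted p under 0.05, 1790 genes were higher (10.1%) and 1912 lower (10.8%), and in 2233 genes (12.7%) every KO-Mem mouse lay above every WT-Mem mouse, against 2382 genes (13.5%) in which every KO-Mem mouse lay below. When all 12 mice shared one estimate of the spread, the same contrast called 280 genes higher (1.59%) and 354 lower (2.01%), among them 11 of the 12. Without KO-Mem 3 the 6-mouse fit called 860 genes higher (4.88%) and 1051 lower (5.96%), including all 12. It called 6 genes without KO-Mem 1, 2 without KO-Mem 2 and 6 without WT-Mem 2, and the 12-mouse fit called 2, 5 and 2479 genes without KO-Mem 1, 2 and 3 and 7, 17 and 6 without WT-Mem 1, 2 and 3. Shank2 was called in every 6-mouse setting tried and in the fit of all 12 mice, and Zxda in each of these that tested it. Zxda, with a mean of 36.2 over the 6 mice, was not tested with a filter at a mean of 50. Below, a gene is said to have risen or fallen only if it is one of the 12, and 12-mouse adjusted p-values are named as such.

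**Figure D1:**
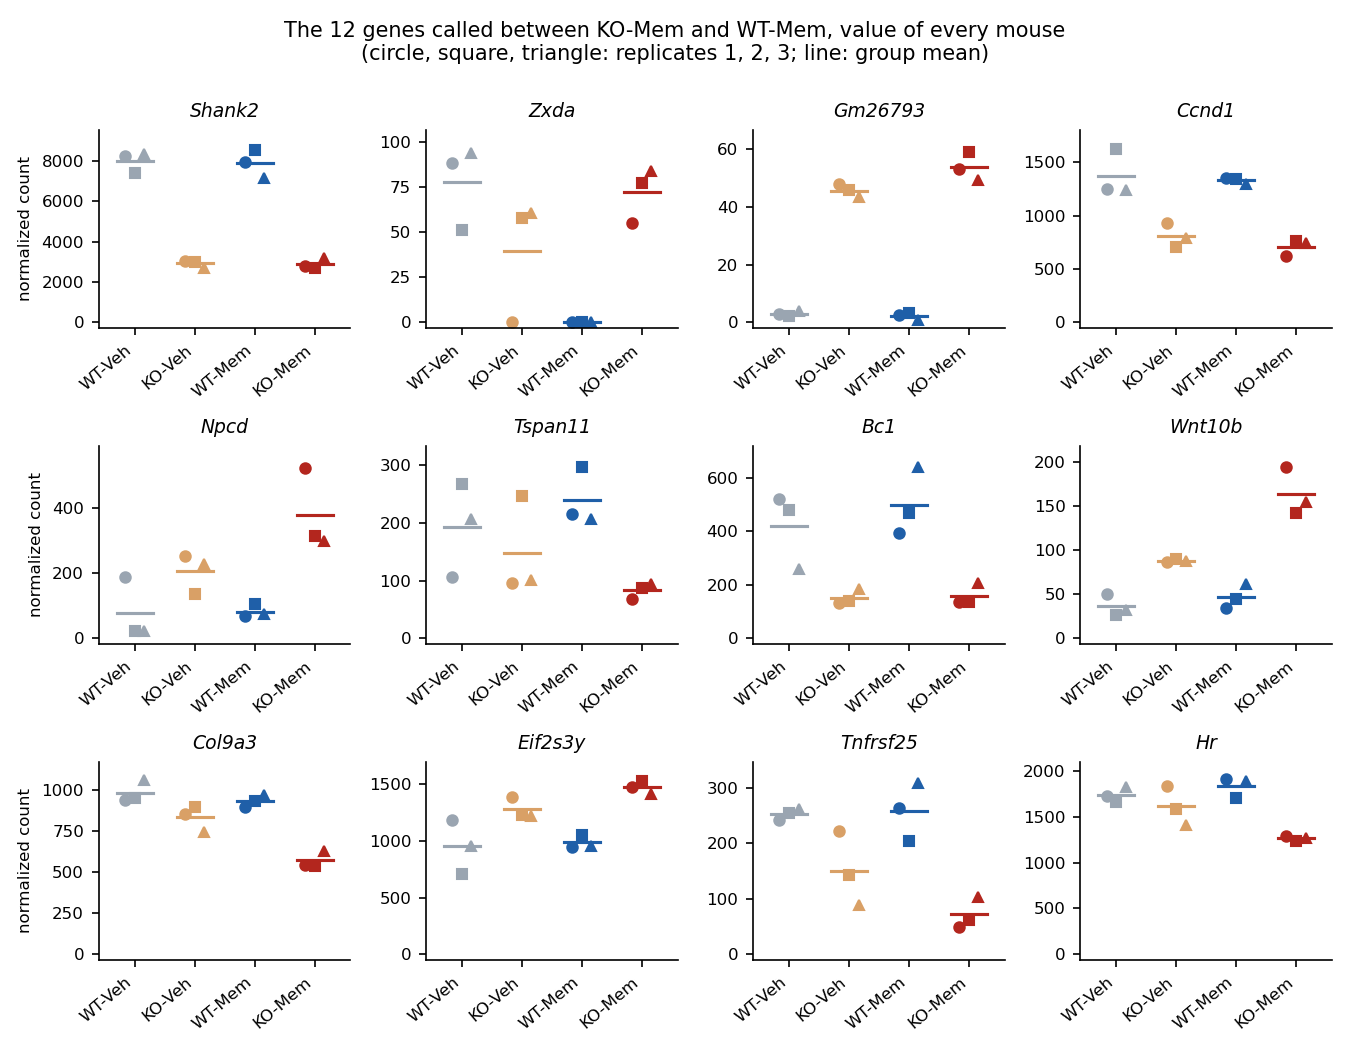
Normalised read counts (vertical axes, linear, each gene on its own scale) of the 12 genes called in Mem-K/W, with 1 point per mouse for KO-Mem, WT-Mem, KO-Veh and WT-Veh (n = 3 each) with a line at each group mean. KO-Mem and WT-Mem points do not overlap in any of the 12 genes, and Zxda is listed at 0 in all 3 WT-Mem mice.

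Of the 12 genes, 4 lay on chromosome 7, namely Shank2 and 3 genes within 0.505 Mb of it. Shank2 lies at 144001928 to 144424494 on the forward strand (GRCm38). Ccnd1, which encodes the G1 cyclin D1 (chromosome 7, 144929931 to 144939925, reverse strand), had values of 618, 760.1 and 743 in KO-Mem and 1354, 1339.9 and 1298 in WT-Mem mice and fell by 0.92 (SE 0.10, adjusted p = 0.0101). Bc1, a short non-coding RNA of neuronal dendrites (chromosome 7, 144914470 to 144914637), had 135, 137 and 205 against 392, 467 and 641 and fell by 1.64 (SE 0.21, adjusted p = 0.0343). Both genes were lower in every knockout mouse. Gm26793, an antisense transcript 0.470 Mb from Shank2, went the other way, with 52.8, 58.7 and 49 in KO-Mem against 2.73, 3.27 and 1.02 in WT-Mem mice (log2 difference 4.09, SE 0.41, adjusted p = 0.00915, a value that depends on the pseudocount since the wild-type values are near 1 to 3 reads). It overlaps Fgf15 on the opposite strand, and a library without strand cannot tell the transcripts of the pair apart.

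These neighbours differed likewise in mice that had no memantine. The Veh-K/W log2 difference was −0.75 for Ccnd1, −1.42 for Bc1 and 3.55 for Gm26793. In the window of 10 Mb around Shank2, 123 genes were tested. Of these, 4 were called, 10 were called in the 12-mouse fit, 36 (29.3%) had an unadjusted p under 0.05 and 44 did not overlap between the groups. The window counts include Shank2 itself. Among the 17364 genes farther than 20 Mb away or on other chromosomes, 20.9% had an unadjusted p under 0.05. Of those 17364 genes, 8 were called, 622 were called in the 12-mouse fit and 4534 did not overlap between the groups. The median size of the log2 difference was 0.237 in the window and 0.156 elsewhere. Further from Shank2, Tpcn2, an endolysosomal ion channel 0.762 Mb away, differed by −0.57 (unadjusted p = 0.00424) and Mrgprf, an orphan receptor gene 0.876 Mb away, by 0.80 (unadjusted p = 0.00657). Deaf1, a transcription factor, had 3620.4, 3559.6 and 2825 in KO-Mem against 2064, 2263 and 2609 in WT-Mem mice (log2 difference 0.53, 12-mouse adjusted p = 0.0369, Veh-K/W 0.42). Cfap46, a cilium gene, had 343, 375 and 432 against 196, 253 and 104 (1.14, 12-mouse adjusted p = 0.0323, Veh-K/W 0.69). The deletion and any donor sequence carried along beside it were shared by all knockout mice and cannot be told apart.

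**Figure D2:**
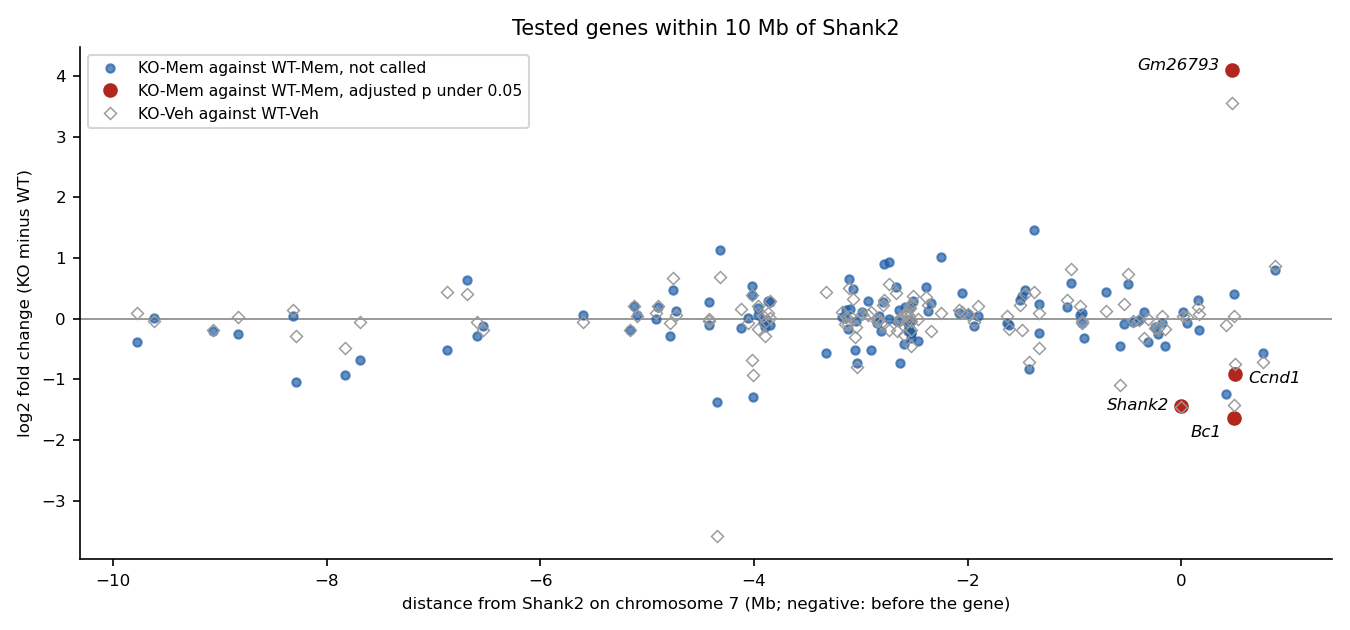
Log2 difference between KO-Mem and WT-Mem (vertical axis) of the 123 genes tested within 10 Mb of Shank2 against their distance from it (horizontal axis, Mb), with called genes in red and Veh-K/W as open diamonds. Shank2, Ccnd1, Bc1 and Gm26793 stand out next to the deletion, with differences of −1.44, −0.92, −1.64 and 4.09.

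The other 8 called genes lay elsewhere in the genome. Wnt10b, a secreted Wnt ligand (chromosome 15, 98770712 to 98778150), had 194, 142 and 155 in KO-Mem against 34.6, 44.4 and 61.8 in WT-Mem mice and rose by 1.81 on the log2 scale (SE 0.23, adjusted p = 0.0343). Eif2s3y, the Y-linked gene of a translation initiation factor subunit, had 1474, 1529.9 and 1414 against 946, 1052 and 957 and rose by 0.58 (SE 0.08, adjusted p = 0.0431). In both genes the groups were clearly separate. Of the 4 tested genes of the sex-linked marker list, Eif2s3y was the only one called, at a list median of 0.15. Npcd had 521, 314 and 299 against 67, 104 and 74.7 and rose by 2.17 (SE 0.24, adjusted p = 0.0125), with KO-Mem 1 the highest. Its adjusted p was 0.0532 in the 12-mouse fit, the only one of the 12 to miss there. Npcd overlaps Nptxr and Cbx6 on the same strand, which differed by −0.04 (unadjusted p = 0.479) and −0.03 (unadjusted p = 0.613), so its reads could have been divided among them. Both were named for this overlap.

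Zxda, annotated as an unprocessed pseudogene on the X chromosome, had values of 55.3, 77.4 and 84.2 in KO-Mem and was listed at 0 in all 3 WT-Mem mice (adjusted p = 0.000557). It was also listed at 0 in 1 KO-Veh mouse, with 58.1 and 60.6 in the other two, and had 88.4, 51.4 and 94.3 in WT-Veh. The 3 WT-Mem mice were thus the group that stood apart, not the knockouts. Zxda has near-identical relatives among which reads can be divided, an exact 0 can be a failed estimate, and no fold is given.

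Away from chromosome 7, 4 genes fell. Tspan11, a tetraspanin, had 67.7, 87.9 and 94.8 in KO-Mem against 215, 298 and 208 in WT-Mem mice and fell by 1.51 (SE 0.19, adjusted p = 0.0343). Tnfrsf25, the death receptor for the cytokine TL1A, had 50.1, 61.7 and 104 against 265, 205 and 309 and fell by 1.88 (SE 0.26, adjusted p = 0.046). In both genes the highest knockout lay far below the lowest wild type. Col9a3, a collagen chain, had 545, 539.7 and 629.8 against 899, 934 and 972 and fell by 0.71 (SE 0.09, adjusted p = 0.0343). Hr, the hairless corepressor of thyroid hormone receptors, had 1285, 1230.0 and 1270.3 against 1909.9, 1702 and 1891 and fell by 0.54 (SE 0.08, adjusted p = 0.046). The knockout values of Hr spanned a narrow range in which KO-Mem 3 did not stand out.

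Among the other genes with the smallest p-values and no overlap between groups, Leng8, a gene of mRNA nuclear retention, had 21299, 19754 and 17549.9 in KO-Mem against 13950.1, 14314 and 13505 in WT-Mem mice (log2 difference 0.48, adjusted p = 0.0586 over 6 mice and 0.0267 over 12). Miip had 846, 772 and 666 against 427, 478 and 479 (0.72, 12-mouse adjusted p = 0.0143). Hrk, a pro-apoptotic BH3-only gene, was higher by 0.49 (12-mouse adjusted p = 0.019) and Tbkbp1, an adaptor of the kinase TBK1, also by 0.49. Myl4, an atrial and embryonic myosin light chain, had 178, 243 and 280.4 against 490.0, 461 and 548 (−1.11), Krt80, a keratin, 47.1, 58.2 and 50.1 against 132, 113 and 117 (−1.21, Veh-K/W −1.04), and Inf2, a formin, was lower by a log2 difference of −0.47. Gm42890, Lncppara and Gm14164 were higher by 1.34, 1.03 and 1.89, but all 3 overlap other genes.

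Gene lists were described by how many members differed and by their median, beside a median of 0.00 over all genes tested. No list was tested as a whole. Over all genes tested, 10.1% were higher and 10.8% lower at an unadjusted p under 0.05, and 12.7% and 13.5% did not overlap. In the 12-mouse fit 1.59% were called higher and 2.01% lower. Counts of list members are to be read against these shares. Of the lists other than blood cell and sex-linked genes, those that lay lowest were cholesterol and fatty acid synthesis, immediate early genes, myelin, oligodendrocyte precursors and the ER chaperones, and those that lay highest were glucocorticoid, chromatin and nuclear RNA lists, at smaller medians.

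**Figure D3:**
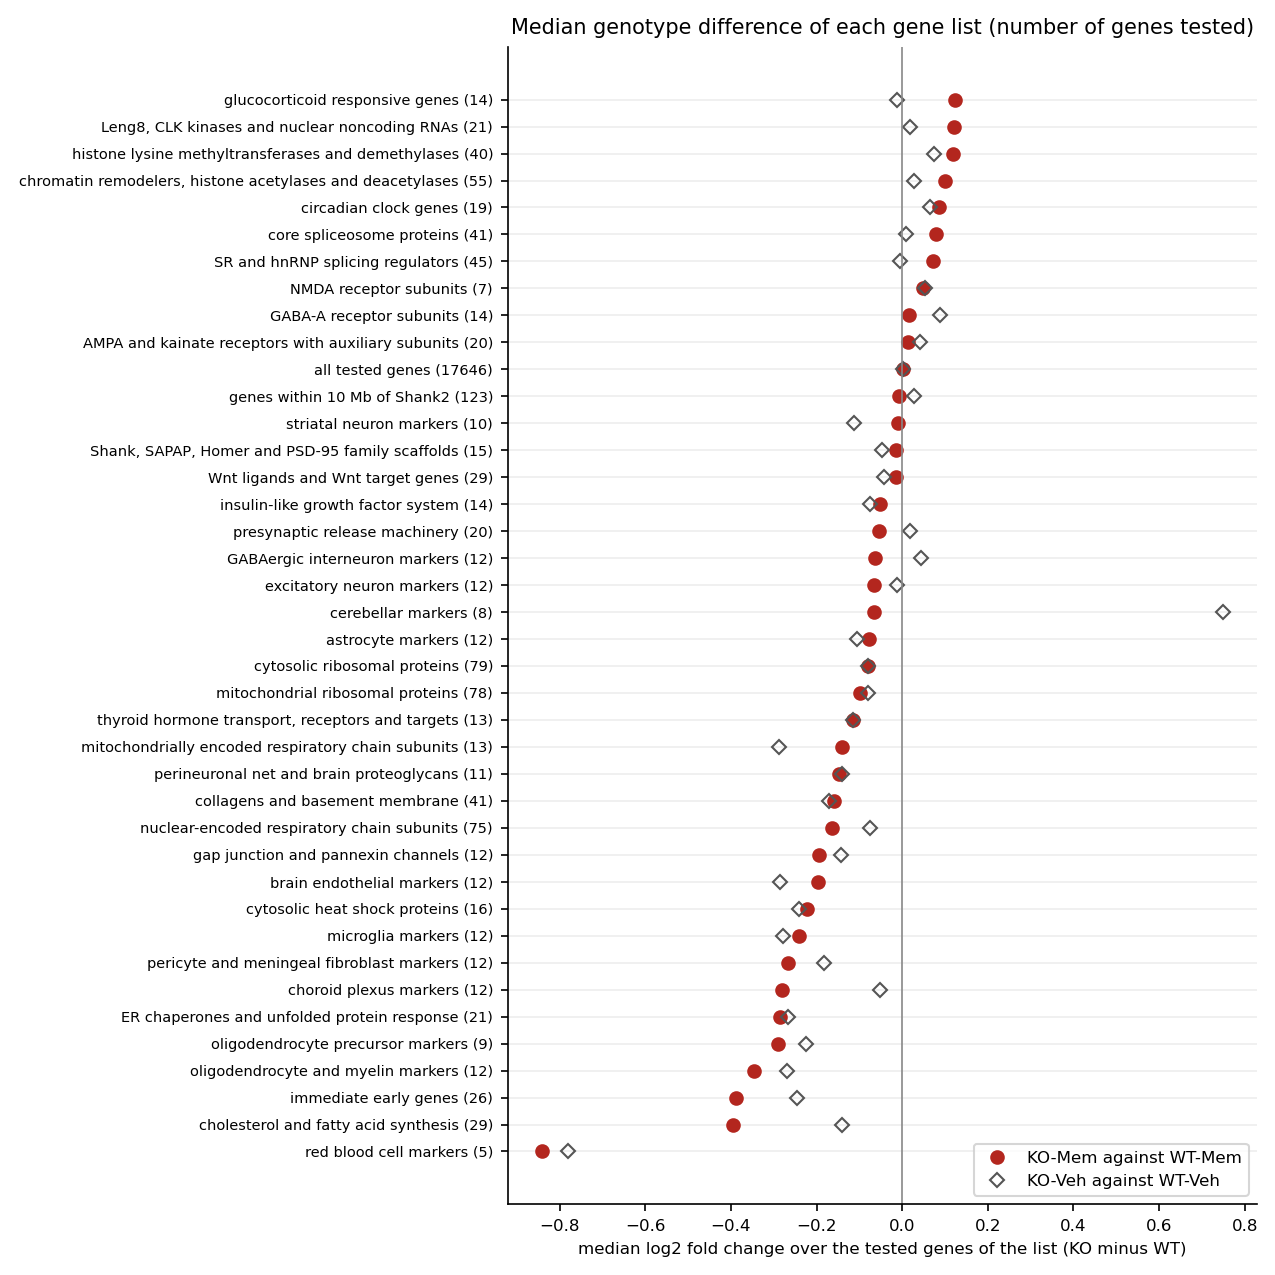
Median log2 difference of each gene list in Mem-K/W (KO-Mem minus WT-Mem) and in Veh-K/W (KO-Veh minus WT-Veh), 1 row per list, with the line at 0 marking the median of all genes. Cholesterol synthesis and immediate early genes both have a median of −0.39 in Mem-K/W, against −0.14 and −0.25 in Veh-K/W.

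Genes of cholesterol and fatty acid synthesis were lower in KO-Mem mice as a group. Of 29 genes tested none was called over 6 mice, 14 were called lower over 12 mice, and 23 were lower and 1 higher at an unadjusted p under 0.05. In 18 genes every KO-Mem mouse lay below every WT-Mem mouse. The median log2 difference was −0.39, and without KO-Mem 3 the 6-mouse fit called 22 lower and 1 higher at a median of −0.52. Averaged over the list, the deviation from the mean of the 6 mice was −0.36, −0.22 and 0.06 in KO-Mem 1, 2 and 3 and 0.19, 0.14 and 0.19 in WT-Mem mice. KO-Mem 3 was therefore nearer to wild type than to the other knockouts.

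The difference was seen at early and late steps of the pathway. Hmgcs1, which condenses acetyl groups into HMG-CoA, had 5609.7, 6187 and 8682 in KO-Mem against 10504, 9962 and 10387 in WT-Mem mice (log2 difference −0.62, SE 0.13, 12-mouse adjusted p = 0.0294). The groups of mice were apart at this entry step. Idi1, the isopentenyl diphosphate isomerase, had 736, 937 and 1471 against 1856, 1681 and 1798 (−0.82, 12-mouse adjusted p = 0.0323). Sqle, the squalene epoxidase that follows, had 1401, 1562 and 2075 against 2410.1, 2223 and 2510.4 (−0.52). In these genes, too, KO-Mem 3 was the highest knockout and still below the wild-type range. Dhcr7, which makes cholesterol from 7-dehydrocholesterol, had 918, 1046 and 1295 against 1580.0, 1331 and 1512 (−0.45). Dhcr7 lies only 0.154 Mb from Shank2.

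Fatty acid genes and regulators of the pathway were mostly lower too, since 27 of the 29 genes of the list lay below 0. Scd1, the stearoyl-CoA desaturase, had 3026, 3464 and 4129.7 in KO-Mem against 5107, 4808 and 4769 in WT-Mem mice (−0.48). Srebf2, the transcription factor that drives sterol genes, was lower by a log2 difference of −0.39. Srebf1, the factor of fatty acid synthesis, was the 1 gene of the list higher at an unadjusted p under 0.05. It had 2469, 2699 and 1705 against 1510.0, 1741 and 1556 (0.49), and here KO-Mem 3 overlapped the wild-type range. Idi1, Sqle, Dhcr7 and Srebf2 were named for their place in the pathway after their values had been seen.

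**Figure D4:**
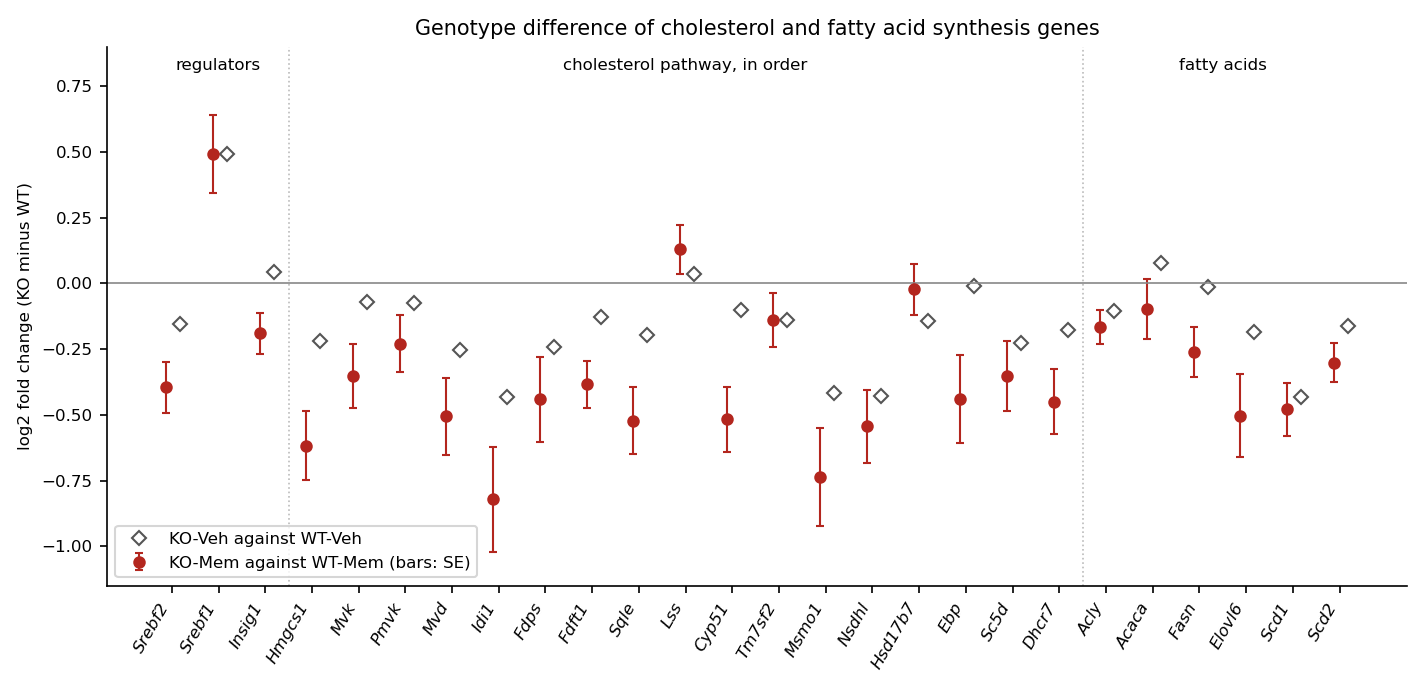
Log2 difference (vertical axis) of genes of cholesterol and fatty acid synthesis, in the order of the pathway, for KO-Mem against WT-Mem (red circles, bars show the SE) and KO-Veh against WT-Veh (open diamonds, n = 3 mice per group). Most red circles lie below 0, with Idi1 at −0.82 and Hmgcs1 at −0.62, and Srebf1 is the highest at 0.49.

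The same 2 knockouts were lowest in genes of myelin. Of 12 myelin and mature oligodendrocyte genes, 8 were lower at an unadjusted p under 0.05 with no overlap between groups, 7 were called lower over 12 mice and none was higher, at a median of −0.35 (−0.41 and 8 called lower without KO-Mem 3). Ugt8a, which makes galactocerebroside, had 1701, 2285 and 3483 in KO-Mem against 4829, 4706 and 4643 in WT-Mem mice (−0.99, 12-mouse adjusted p = 0.0256). Cnp, a phosphodiesterase of non-compact myelin, had 13012, 14523 and 16753 against 19706, 18999 and 23014 (−0.48). No knockout reached the wild-type range in either gene. The summed value of the 12 genes was 251510 to 298729 in KO-Mem and 315046 to 368046 in WT-Mem mice. In whole tissue, fewer cells of a type and less RNA per cell cannot be told apart.

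RNA of markers of earlier cells of the lineage was lower as well. Of 9 genes of oligodendrocyte precursors and newly formed oligodendrocytes, 4 were called lower over 12 mice and 5 had an unadjusted p under 0.05, at a median of −0.29. Enpp6, which marks newly forming oligodendrocytes, had 551, 565 and 779.8 in KO-Mem against 954, 946 and 972 in WT-Mem mice, a log2 difference of −0.62. In Enpp6 the vehicle mice differed by −0.02. The list as a whole had a median of −0.23 in vehicle mice, with 6 of 9 lower at an unadjusted p under 0.05. Of 12 gap junction and pannexin genes, 5 were lower and none higher at an unadjusted p under 0.05, and 2 were called lower over 12 mice, at a median of −0.19.

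Immediate early genes, which neurons transcribe within minutes of activity, were lower in KO-Mem mice. Of 26 genes, 19 were lower and none higher at an unadjusted p under 0.05, 13 did not overlap between groups and 1 was called over 12 mice, at a median of −0.39. Without KO-Mem 3, 14 were called lower at a median of −0.48. The list varied widely within each genotype of the vehicle mice. Its deviations from the mean of the 12 mice were 0.21, −0.12 and −0.59 in KO-Veh and −0.34, 0.18 and 0.40 in WT-Veh. Arc, which acts on AMPA receptor endocytosis at synapses, had 1310.1, 2528 and 4874 in KO-Mem against 9857, 6779 and 7415 in WT-Mem mice (−1.65, unadjusted p = 0.00115, 12-mouse adjusted p = 0.106). Fos, an AP-1 subunit named after its values were seen, had 447, 619 and 913 against 1071, 1177 and 1070.4 (−0.80), and Nr4a1, an orphan nuclear receptor, had 1425, 1942 and 2734 against 3794, 3251 and 3099.8 (−0.78). Arc spread most widely among the knockouts, and yet its highest knockout stayed below its lowest wild type. Ier5 was the one gene called over 12 mice, with 797, 1016 and 1312 against 1766, 1387 and 1932 (−0.72, 12-mouse adjusted p = 0.0425). Jund, by contrast, had a log2 difference of 0.00.

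**Figure D5:**
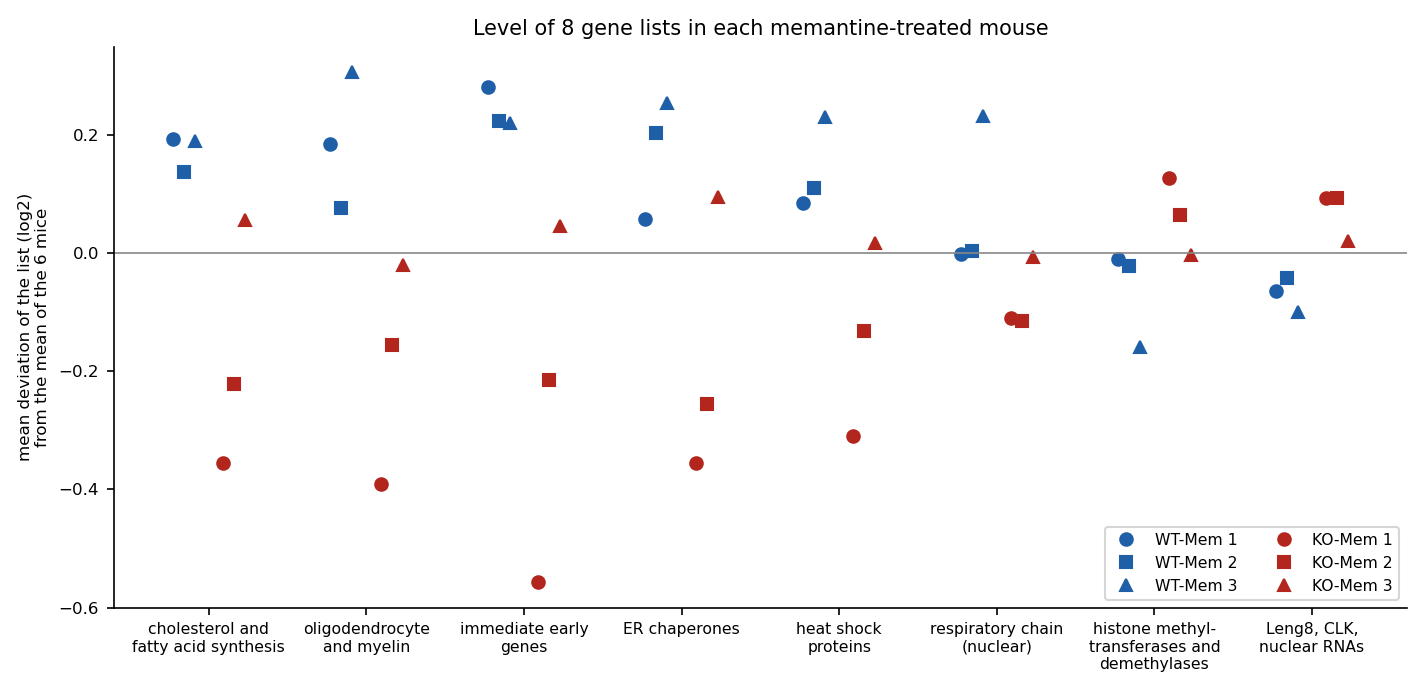
Mean deviation of each mouse from the mean of the 6 memantine mice (log2 scale), averaged over the tested members of 8 lists, with 1 point per KO-Mem (red) and WT-Mem (blue) mouse. For immediate early genes the KO-Mem mice lie at −0.56, −0.21 and 0.05 and the WT-Mem mice at 0.28, 0.22 and 0.22, and KO-Mem 3 is the knockout nearest to wild type in all 8 lists.

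Chaperones of the ER were lower together. Of 21 genes of ER folding and the unfolded protein response, 14 were lower and none higher at an unadjusted p under 0.05, 7 did not overlap and 3 were called over 12 mice, at a median of −0.29. Without KO-Mem 3, 14 were called lower at a median of −0.38. Calr, the ER calcium-binding chaperone calreticulin, had 4969.8, 5864 and 8292 in KO-Mem against 9454, 9962 and 10709 in WT-Mem mice (−0.69, 12-mouse adjusted p = 0.0267). Pdia4, a disulfide isomerase, had 573, 699.6 and 1156 against 1173, 1469.8 and 1428 (−0.80, 12-mouse adjusted p = 0.0441). Hspa5, the master ER chaperone BiP and named after its values were seen, had 4925, 5609 and 8817 against 7898, 9844 and 10124 (−0.56, unadjusted p = 0.0119). In Hspa5 KO-Mem 3 fell within the wild-type range, whereas KO-Mem 1 and 2 did not.

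A promoter element named for the ER stress response was present in part of the list, Calr and Hspa5 included. The list was chosen for that same function, so the share of members with a match is no independent result. The ER stress response element is read by ATF6 with NF-Y and was searched here as CCAAT and CCACG held 9 bases apart, on both strands of the window from 250 bases before to 50 bases after each RefSeq start (GRCm38.p6). Of 19 list members with a window, 7 held it (36.8%), against 21 of the 12519 tested genes with a window (0.168%). They are shown, and most were named, because they are members of one list that lay lower together. Capitals mark the whole match from one motif end to the other, with 20 bases on either side, and the lines are read 5′ to 3′ on the strand of the gene. The matches lay 162 to 144 bases before the start in Calr (chr8:84847055-84847113, reverse strand), 145 to 127 in Canx (chr11:50325780-50325838, reverse), 98 to 80 in Pdia6 (chr12:17266471-17266529, forward), 65 to 47 in Hspa5 (chr2:34772005-34772063, forward), 126 to 108 in Creld2 (chr15:88819500-88819558, forward) and 105 to 87 in Dnajc3 (chr14:118937807-118937865, forward). Hsp90b1 (chr10:86705513-86705676, reverse) held 2 matches between 212 and 89 bases before its start.
Calr: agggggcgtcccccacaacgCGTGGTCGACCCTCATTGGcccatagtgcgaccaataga
Canx: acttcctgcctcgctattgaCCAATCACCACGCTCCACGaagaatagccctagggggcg
Pdia6: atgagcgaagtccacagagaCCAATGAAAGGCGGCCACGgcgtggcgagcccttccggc
Hspa5: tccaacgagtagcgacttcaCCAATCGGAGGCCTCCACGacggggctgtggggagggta
Creld2: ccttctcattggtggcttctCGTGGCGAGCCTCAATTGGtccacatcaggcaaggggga
Dnajc3: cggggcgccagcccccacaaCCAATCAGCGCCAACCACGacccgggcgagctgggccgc
Hsp90b1: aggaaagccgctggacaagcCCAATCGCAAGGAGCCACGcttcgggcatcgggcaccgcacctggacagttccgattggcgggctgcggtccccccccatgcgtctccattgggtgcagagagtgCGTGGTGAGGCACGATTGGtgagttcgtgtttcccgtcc
The log2 differences of these 7 genes were −0.69 for Calr, −0.25 for Canx, −0.52 for Pdia6, −0.56 for Hspa5, −0.62 for Creld2, −0.15 for Dnajc3 and −0.28 for Hsp90b1, all negative and with an unadjusted p under 0.05 in each but Dnajc3 (unadjusted p = 0.135). Over the whole list, 17 of 21 genes lay below 0. A match is a description of these letters and no evidence of binding.

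Cytosolic heat shock proteins, which fold proteins outside the ER, lay lower by a smaller median. Of 16 genes, 8 were lower and none higher at an unadjusted p under 0.05, 9 did not overlap and 3 were called over 12 mice, at a median of −0.22. Hspa8, the constitutive HSC70, had 47614, 50379.8 and 51436 in KO-Mem against 61451, 59966 and 61242 in WT-Mem mice (−0.29, 12-mouse adjusted p = 0.0335), so that all 3 knockouts stood clear of wild type. Cryab, a small heat shock protein abundant in oligodendrocytes, had 924, 1076 and 1505 against 1861, 1701 and 2172 (−0.73), and Hsph1, an HSP70 exchange factor, 3486, 4693 and 6677 against 8024, 8058 and 7956 (−0.75). The heat shock element, searched as 3 alternating GAA and TTC units 2 bases apart, was held by 4 of 12 members with a window (33.3%) and by 71 of all 12519 (0.567%). In 1 of the 4, Hsph1, the matches lay wholly after the start. Hspe1 and Hspd1, which the list holds although they encode the mitochondrial chaperonin, are transcribed away from one another from 1 shared segment, and the match in it (2 overlapping runs of the motif), at chr1:55088039-55088096, is shown because it belongs to both promoters, 89 to 72 bases before the start of Hspe1 and 144 to 127 before that of Hspd1.
Hspe1: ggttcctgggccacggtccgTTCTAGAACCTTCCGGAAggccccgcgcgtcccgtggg
Hspe1 differed by −0.28 (unadjusted p = 0.0201) and Hspd1 by −0.12 (unadjusted p = 0.0869), both named after their values were seen.

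Corresponding searches gave fewer matches in the lists with the lowest medians. The sterol element TCACNCCAC was in 1 of 21 windows of the sterol list (4.76%, against 1.41% of all windows), that of Hmgcs1 at chr13:119690194-119690242, 137 to 129 bases before its start. The cyclic AMP element TGACGTCA was in 2 of 20 windows of immediate early genes (10%, against 3.33%), those of Dusp1 and Btg2, named for their match. Absence of a match says only that these letters are not in this window.
Hmgcs1: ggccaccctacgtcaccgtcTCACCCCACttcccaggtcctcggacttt

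Mitochondrial genes lay slightly lower. Of 75 nuclear genes of oxidative phosphorylation tested, 27 were lower and none higher at an unadjusted p under 0.05, 26 did not overlap and 1 was called over 12 mice, at a median of −0.16. The list averages of the knockouts were −0.11, −0.12 and −0.01, and those of wild type 0.00, 0.00 and 0.23, so WT-Mem 3 stood highest by far, and without it the median was −0.08. Among the 13 genes encoded by mitochondrial DNA, 5 were lower at an unadjusted p under 0.05 and none was called over 12 mice, at a median of −0.14 against −0.29 in vehicle mice. mt-Atp6, an ATP synthase subunit, had 11708, 16904 and 19568 in KO-Mem against 28348, 28981 and 31675 in WT-Mem mice (−0.92, 12-mouse adjusted p = 0.0587). It stood well apart from its list.

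Ribosomal protein genes differed little as lists. The 79 genes of the cytosolic ribosome had a median of −0.08, with 8 lower and 1 higher at an unadjusted p under 0.05, and the 78 of the mitochondrial ribosome had a median of −0.10, with 13 lower and 2 higher. Over all genes tested, 10.8% were lower and 10.1% higher by the same measure. In vehicle mice the medians of both lists were −0.08. WT-Mem 3 stood above the other 5 mice in both lists, and without it the medians were −0.006 for the cytosolic and −0.04 for the mitochondrial ribosome. Mrps25, a subunit of the small mitochondrial ribosome, was the one gene of the latter called over 12 mice, with 783, 918 and 1150.4 in KO-Mem against 1673, 1429 and 1486 in WT-Mem mice (−0.70, 12-mouse adjusted p = 0.023).

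Genes of the extracellular matrix lay lower, though not uniformly. Of 41 collagen and basement membrane genes, 14 were lower and 6 higher at an unadjusted p under 0.05, and 6 were called lower and none higher over 12 mice, at a median of −0.16. Hspg2, the basement membrane proteoglycan perlecan, had 601, 624 and 927 in KO-Mem against 1327, 1164 and 1350.2 in WT-Mem mice (−0.86, 12-mouse adjusted p = 0.0267). Of 11 perineuronal net genes, 3 were lower and 1 higher at an unadjusted p under 0.05, at a median of −0.15 that became −0.04 without KO-Mem 3. Ncan, a brain proteoglycan of these nets, differed by −0.40 (12-mouse adjusted p = 0.0267). Of 14 genes of insulin-like growth factor signalling, 6 were lower and 2 higher at a median of −0.05. Igfbp2, a binding protein that restrains IGF, had 447, 437 and 775 against 974, 929 and 1054 (−0.88, 12-mouse adjusted p = 0.0342), and no knockout reached the wild-type range.

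Chromatin and RNA processing genes lay slightly higher. Of 40 histone lysine methyltransferase and demethylase genes, 12 were higher and none lower at an unadjusted p under 0.05, 9 did not overlap and 3 were called over 12 mice, at a median of 0.12 (0.17, and 6 called higher, without KO-Mem 3). Suv39h1, which trimethylates H3K9, had 1233, 1121 and 997 in KO-Mem against 788, 889 and 874 in WT-Mem mice (0.39, 12-mouse adjusted p = 0.0374). Ehmt2, the G9a methyltransferase of the same residue, had 10563, 9008 and 7622 against 6688, 6744 and 7240.2 (0.38, 12-mouse adjusted p = 0.0441), and Nsd1, which methylates H3K36, was higher by 0.44 (12-mouse adjusted p = 0.0494). The differences were of even size, and KO-Mem 3 was the nearest to wild type in Suv39h1 and Ehmt2. Of 55 genes of chromatin remodellers, histone acetylases and deacetylases, 14 were higher and 2 lower, at a median of 0.10. Chd2, the one called over 12 mice, had 3377, 3001 and 2652 against 2403, 2241 and 2243 (0.38, 12-mouse adjusted p = 0.0369).

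Of 41 spliceosome genes, 11 were higher and 1 lower at an unadjusted p under 0.05 and 3 were called higher over 12 mice, at a median of 0.08. The groups did not overlap in 11 genes that were higher and 4 that were lower. The list averages were 0.090, 0.044 and −0.002 in KO-Mem and −0.084, −0.055 and 0.008 in WT-Mem mice, so KO-Mem 3 lay below WT-Mem 3. Sf3b1, the branch-point factor, was higher by 0.34 (12-mouse adjusted p = 0.0335), Cwc22 by 0.44 and Prpf39 by 0.31. Regulators of splicing were divided, with 7 of 45 SR and hnRNP genes higher and 7 lower (10.1% and 10.8% of all genes tested). Ptbp2, the neuronal polypyrimidine tract protein, had 3507, 3064 and 2662 in KO-Mem against 2366, 2254 and 2151 in WT-Mem mice (0.44, 12-mouse adjusted p = 0.0298), whereas Hnrnpc was lower by a log2 difference of −0.42 (12-mouse adjusted p = 0.0267). Of 21 genes in a list of Leng8, CLK kinases and nuclear non-coding RNAs, 8 were higher and none lower, at a median of 0.12. Among them Meg3 was higher by 0.27 and Snhg11 by 0.26, and Malat1, added after its values were seen, was higher by 0.33 (unadjusted p = 0.0293). Meg3 was at 0 under quantile normalisation. That method gives equal ranks equal values, so it cannot show a difference for a gene that keeps its rank.

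Non-coding classes lay higher than protein-coding genes. The median log2 difference was 0.12 in 569 lincRNAs, 0.16 in 640 antisense RNAs, 0.19 in 539 genes of the class TEC (to be experimentally verified) and 0.10 in 333 processed transcripts, against −0.01 in 15042 protein-coding genes. Low values moved with this shift, since the bin of genes with the lowest means had a median of 0.09. Among genes with a mean of at least 50 the medians were 0.09 in 220 lincRNAs, 0.12 in 195 antisense genes and 0.10 in 157 TEC genes. At an unadjusted p under 0.05, 15.8% of antisense genes were higher and 3.59% lower, against 9.37% and 12.0% of protein-coding genes. By length of the longest transcript, the median went from −0.04 in the shortest of 5 equal bins to 0.03 in the longest. In the shortest bin WT-Mem mice had median deviations of −0.020, −0.015 and 0.121, and KO-Mem mice of −0.030, −0.022 and 0.003. In the longest bin WT-Mem mice lay at 0.031, 0.031 and −0.108, and KO-Mem mice at 0.029, 0.020 and 0.004. This trend with length thus rested on WT-Mem 3. Part of the reads of antisense and intronic transcripts may belong to overlapping genes, since the libraries carry no strand. The part of transcript length in these differences was not tested.

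Synaptic genes other than Shank2 differed little. Of 15 scaffold genes of the Shank, SAPAP, Homer and PSD-95 families, Shank2 was the one called, and the median was −0.01. Shank1 differed by −0.13 and Shank3 by −0.12 (unadjusted p = 0.0565), both named after their values were seen. Homer1, which binds Shank proteins and has an activity-induced short form, had 2985, 4134 and 4590.4 in KO-Mem against 5417, 5349 and 4884 in WT-Mem mice (−0.44). Of 7 NMDA receptor subunit genes, the target of memantine, none was called over 6 or 12 mice and 1 had an unadjusted p under 0.05, at a median of 0.05 that was −0.09 without WT-Mem 3. Grin1, the obligatory subunit, differed by 0.11 (unadjusted p = 0.0803) and Grin2b by 0.16, a value that was negative without WT-Mem 3. Grin2c had 1219, 1406 and 1535 against 1681, 1708 and 1639.8 (−0.28, unadjusted p = 0.0117).

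The other synaptic lists had medians near 0. Of 20 genes of AMPA and kainate receptors with their auxiliary subunits, 3 were higher and 3 lower at an unadjusted p under 0.05 (median 0.01, and −0.04 without WT-Mem 3). Of 20 presynaptic genes none was higher and 5 were lower, with 16 of the 20 below 0 (median −0.05). Of 14 GABA-A receptor genes, 2 were lower at a median of 0.02, which was −0.06 without WT-Mem 3. Gabrd, the delta subunit of extrasynaptic tonic inhibition, had 1356, 1428 and 1549 in KO-Mem against 1832, 1949 and 1971 in WT-Mem mice (−0.41, 12-mouse adjusted p = 0.0266), the one receptor subunit of these lists called over 12 mice.

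Hormone-responsive genes were divided. Of 14 glucocorticoid targets, 4 were higher and 2 lower at an unadjusted p under 0.05, at a median of 0.12 that was 0.04 without KO-Mem 1. Fkbp5, a chaperone induced by glucocorticoids, had 3313, 2268 and 1790.0 in KO-Mem against 1551, 1280.0 and 1469 in WT-Mem mice (0.73, 12-mouse adjusted p = 0.0407). Plin4, a lipid droplet protein, had 1287, 492 and 181 against 191, 112 and 157 (1.69), whereas Tsc22d3, known as GILZ, differed by −0.59. The list averages were 0.50, 0.09 and −0.17 in the knockouts and −0.08, −0.16 and −0.17 in wild type, so KO-Mem 1 lay farthest from wild type and KO-Mem 3 at its level. Of 13 thyroid hormone genes, 1 was higher and 1 lower over 12 mice at a median of −0.12. Thra, the main thyroid hormone receptor of brain, had 33465, 32262 and 26789 against 23242, 23490.3 and 25992 (0.34, 12-mouse adjusted p = 0.0458), opposite in direction to its corepressor Hr. Of 29 Wnt genes, 2 were higher and 5 lower at a median of −0.02 (0.005 without KO-Mem 2), and of 19 circadian genes 2 were higher and 2 lower at a median of 0.09.

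Markers of other cells moved with the lists described here. Red blood cell genes had the lowest median, −0.84 in KO-Mem and −0.78 in vehicle knockouts, with 4 of 5 lower at an unadjusted p under 0.05. Their summed value was 5626 to 12528 in KO-Mem and 13301 to 14809 in WT-Mem mice, and Hbb-bs, a beta-globin, had 1654, 2164 and 3970.2 against 4163, 4483 and 4942. The list averages of −1.19, −0.49 and 0.32 put the knockouts in the same order as the sterol and immediate early genes. Of 12 microglial markers, 7 were lower and none higher, at a median of −0.24 (−0.28 in vehicle mice), and their summed value was 8008 to 9626 in KO-Mem and 10230 to 10844 in WT-Mem mice. Itgam had 185, 248 and 493 against 586, 567 and 489, and P2ry12, the purinergic receptor of resting microglia, 366, 462 and 833 against 823, 939.5 and 831. Here KO-Mem 3 was at the wild-type level and KO-Mem 1 and 2 were not. Without KO-Mem 3 the median was −1.26 for red blood cell and −0.40 for microglial markers.

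Vessel and choroid plexus markers also had negative medians. Endothelial markers had a median of −0.20 with 3 of 12 lower at an unadjusted p under 0.05, against 10.8% of all genes tested. Pericyte and meningeal fibroblast markers had a median of −0.27 with only 2 of 12 lower. Over 12 mice 2 of them were called, among them Rgs5 (−0.71, 12-mouse adjusted p = 0.0267). In vehicle mice the endothelial median was −0.28 with 8 of 12 lower. That of pericyte and fibroblast markers was −0.18 with 4 of 12 lower. Choroid plexus markers had a median of −0.28 with 4 of 12 lower, against −0.05 in vehicle mice, and summed to 14128 to 25165 in KO-Mem and 24903 to 26154 in WT-Mem mice. Without KO-Mem 3 the medians were −0.16 for endothelial, −0.38 for pericyte and fibroblast and −0.40 for choroid plexus markers. No marker of these lists was listed at 0 in every mouse. The part of blood, vessel and microglial RNA in the lower sterol, immediate early and chaperone genes was not tested.

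Neuronal and astrocyte markers were nearer to 0. The median was −0.07 for excitatory, −0.06 for GABAergic and −0.01 for striatal neurons, the last of either sign with 1 mouse left out. Of 12 astrocyte markers 3 were higher and 5 lower, and 2 were called each way over 12 mice, at a median of −0.08. Aqp4, the water channel of astrocyte endfeet, had 2036, 2148 and 2826 in KO-Mem against 3918, 3462 and 3489 in WT-Mem mice (−0.65, 12-mouse adjusted p = 0.0267), whereas Etnppl, an astrocytic phospholyase, had 1811, 1624 and 1195 against 899, 933 and 941 (0.72, 12-mouse adjusted p = 0.0332, Veh-K/W 0.77). The astrocyte list was thus split, with both groups of mice apart in either gene.

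Set beside the vehicle mice, which share no animal with the memantine mice, Mem-K/W showed more genes past an unadjusted p of 0.05. In Veh-K/W 1190 genes were higher (6.73%) and 1358 lower (7.68%) of 17671 tested. The 3702 genes of Mem-K/W became 2163 without KO-Mem 1 and 2425 without KO-Mem 2, in fits with 1 mouse fewer, and the difference between both counts was not tested. The difference between both knockout effects was itself tested, as an interaction term in a fit over all 12 mice. No gene passed an adjusted p of 0.05 in limma, and 840 of 17655 (4.76%) had an unadjusted p under 0.05, so no gene was shown to respond to the deletion differently under memantine. Without KO-Mem 3 the interaction called 4 genes, and it called 1 without KO-Veh 1 and 1 without WT-Veh 2.

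Of the list members, 6 of 29 sterol genes, 5 of 21 in the Leng8 list and 0 of 26 immediate early genes had an unadjusted interaction p under 0.05. The genes named next were picked for a small p in Mem-K/W, whose values also enter the interaction. Their unadjusted interaction p-values are therefore not independent of that choice. Hmgcs1 differed by −0.22 in Veh-K/W, against −0.62 in Mem-K/W (interaction, unadjusted p = 0.041), and Ugt8a by −0.32, against −0.99 (interaction, unadjusted p = 0.014). Col9a3 and Hr, both called, differed by only −0.24 and −0.12 in Veh-K/W (interaction, unadjusted p = 0.0027 for Col9a3 and unadjusted p = 0.004 for Hr). By contrast Wnt10b, Npcd and Eif2s3y differed by 1.30, 2.05 and 0.45 in vehicle mice, in the direction they took after memantine. ER chaperones (−0.29 and −0.27), cytosolic heat shock proteins (−0.22 and −0.24) and myelin genes (−0.35 and −0.27) had like medians in Mem-K/W and Veh-K/W, with no test of their difference.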

How the data were processed

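Per the study's methods, poly-A RNA of single brains was made into libraries without strand (TruSeq v2) and sequenced in pairs on a NovaSeq. The authors quantified transcripts with Salmon 1.1.0 (quasi-mapping, GC bias corrected, GRCm38), summed them to genes and scaled them with DESeq2. These versions, with DESeq2 1.26.0, are from the submitters' processing notes, and the methods name another DESeq2 version. The deposited table holds this signal, normalised estimated read counts, not log-transformed and not whole, for 19312 genes in 12 mice. Whole reads could not be recovered, so no count test was run, and the depth behind each value is known only relatively.

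Genes with a mean of at least 10 over the 6 mice were tested with limma 3.58.1 (trend, moderated statistics, two-sided) on log2(value + 1), with Benjamini-Hochberg adjustment over 17646 genes and a threshold of 0.05, after a check on simulated data. A second fit used all 12 mice with the same contrast, and another the interaction. Named genes were Shank2, all called genes, the 10 with the smallest p in each direction among those with a mean of at least 50 and no overlap, 3 members of each list in its main direction and 1 in the other, 2 of each marker list, and 6 near Shank2, of which some are not reported here. The members and the 26 functional and 13 marker lists were chosen with earlier results of these data known. Gene positions and classes are from GENCODE M21 (19295 genes matched), and promoters from RefSeq. Reads of overlapping, antisense or near-identical genes cannot be divided with certainty.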

Additional observations from a re-analysis of the deposited data

How the results depend on the processing

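The number of called genes was the least stable result. Against 12, it was 5 with no filter on low values, 634 with 12 mice in one fit, 4898 with sample weights, 4 without the trend, 20 with a robust trend and 4 with the replicate number as a block, and leaving out 1 mouse gave from 2 to 1911 genes, with 1911 without KO-Mem 3. The 12-mouse fit gave from 2 to 2479 genes with 1 memantine mouse left out and 407 with the replicate block. The replicate numbers do not pair the mice, since same-numbered mice had correlations of −0.051, 0.011 and −0.005, and not every mouse correlated best with its own number. Of the 12 genes, 12 were called with pseudocounts of 0.5 and 5, 10 after median centring, 12 after quantile normalisation, 8 with a filter at 50, 3 without the trend and 3 with the block, and none changed direction. The interaction called 0 genes in all settings except with 1 mouse left out, from 0 to 4. The cause of these moves was not tested. Windows of 5 and 20 Mb around Shank2 held the same number of called genes as 10 Mb. Values near 0 changed sign: Jund was −0.0044, Cbx6 0.019 and Nptxr 0.049 after quantile normalisation, and with 1 mouse left out Grin2b ranged from −0.051 to 0.27, Jund from −0.070 to 0.10 and Ndufv1, a respiratory chain subunit, from −0.0013 to 0.15. The median of the GABA-A list ranged from −0.063 (without WT-Mem 3) to 0.050. The medians of the NMDA (−0.087 to 0.106), AMPA and kainate (−0.038 to 0.050), Wnt (−0.096 to 0.005), striatal (−0.036 to 0.041) and cerebellar (−0.097 to 0.019) lists also changed sign with 1 mouse left out. Count models were not run, because the table holds normalised values. With 3 mice per group, a spread that 1 mouse dominates limits which genes can be called, and genes near the filter of 10 rest on few reads.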
